A study of Mus musculus with 18 samples.

Results

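Genes for making and desaturating fatty acids were followed in mouse embryonic stem cells with and without Pax7 as they differentiated. The family was chosen by a list of 9 symbols, of which 8 were measured by a probe set of their own: Scd1, Scd3, Fads1, Fads2, Fasn, Acaca, Elovl6 and Srebf1. They are 8 of the 22180 genes on the array that carry a probe set with a single gene symbol. The ninth, Scd2, is listed only on a probe set that also lists Mir5114, a microRNA gene that lies within Scd2, so its values are given as those of a shared probe set and were not tested. The family was proposed with earlier results in view, in which Scd1 and Scd3 were lower in Pax7-/- than in Pax7+/+ cells at day 7. The genotype difference at day 7 is therefore described with no test.

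All cells came from 1 strain background, F1 (C57Bl6N x 129Sv), and differed in genotype, Pax7+/+ or Pax7-/-. Undifferentiated stem cells (day 0) grew in KO-DMEM with LIF, the cytokine that keeps mouse stem cells from differentiating. Embryoid bodies (day 7), the aggregates in which such cells begin to differentiate, and the outgrowths that formed from them (day 21) were kept without LIF and with RA and ITS. Each of the 6 groups had 3 arrays, labelled as biological replicates, and 18 arrays of total RNA were compared in all. Whether the replicates were separate cultures, and whether the Pax7-/- cells were 1 clone or several, is not given in the sources used here, so p-values measure the spread between these samples. The protein lost in Pax7-/- cells is a DNA-binding regulator of muscle stem cells and the neural crest.

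Fatty acids are built in the cytosol from acetyl-CoA. Acetyl-CoA carboxylase (Acaca) makes malonyl-CoA, fatty acid synthase (Fasn) joins it into palmitate, and Elovl6 lengthens palmitate towards stearate. Stearoyl-CoA desaturases (Scd1, Scd2, Scd3) place a double bond in these saturated chains to give oleate and palmitoleate. Fads1 and Fads2 desaturate the polyunsaturated fatty acids that come from the diet. Srebf1 encodes SREBP-1, a transcription factor held in the endoplasmic reticulum until it is released by proteolysis, which drives most of these genes in liver and adipose tissue.

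The genes sit on chromosomes 3, 11 and 19. On the mouse assembly GRCm38.p6 the RefSeq annotation places Scd3 at chr19:44203288-44244016, Scd2 at chr19:44293676-44306864 and Scd1 at chr19:44394450-44407709, with Scd4 between Scd2 and Scd1. Fads2 lies at chr19:10062765-10101503 near Fads1 at chr19:10182877-10196874. Srebf1 (chr11:60199084-60224186), Acaca (chr11:84129635-84401651) and Fasn (chr11:120805958-120825166) share chromosome 11, and Elovl6 lies at chr3:129532386-129638495. RefSeq promoter windows were at hand for Scd3, Fads2, Fasn, Elovl6, Acaca and Srebf1, and not for Scd1, Scd2 and Fads1. Fads2 and Elovl6 are shown because they moved in opposite directions over the days, and Fasn because it had the largest genotype difference among the 8 genes at day 21. The Fads2 sequence is the 250 bases before its start (chr19:10101504-10101753, minus strand), with a GC box in capitals. For Elovl6 the 250 bases before the start are given (chr3:129532136-129532385, plus strand). The Fasn stretch is chr11:120824590-120824619 on the minus strand, with overlapping CCAAT boxes in capitals, the former on the printed strand and the latter on the other.
Fads2: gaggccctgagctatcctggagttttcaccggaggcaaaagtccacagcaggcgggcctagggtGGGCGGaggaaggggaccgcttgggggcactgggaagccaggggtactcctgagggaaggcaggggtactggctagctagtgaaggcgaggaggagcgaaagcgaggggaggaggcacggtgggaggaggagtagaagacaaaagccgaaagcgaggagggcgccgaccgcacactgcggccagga
Elovl6: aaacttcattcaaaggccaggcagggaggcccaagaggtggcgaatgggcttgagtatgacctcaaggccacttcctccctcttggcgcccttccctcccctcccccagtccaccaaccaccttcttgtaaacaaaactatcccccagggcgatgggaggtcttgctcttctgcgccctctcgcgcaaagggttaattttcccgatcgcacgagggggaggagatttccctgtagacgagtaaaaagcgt
Fasn: gcctcggtgtCCAATTGGtttcgatgtgga
The 250 bases before each start were searched on both strands for 4 motifs. The windows of Fasn, Acaca and Srebf1 belong to transcript starts inside the annotated gene span, so they are not the sequence upstream of the whole gene, while those of Scd3, Fads2 and Elovl6 lie outside it. The core of the classical sterol response element (SRE), CACCCCAC, stood in 2.58% of all 32851 RefSeq windows of this length, the E-box CACGTG in 6.02%, the CCAAT box CCAAT in 33.8% and the GC box GGGCGG in 32.7%. Fasn held 3 CCAAT boxes, Fads2 held 1 GC box, and the windows of Scd3, Elovl6 and Acaca held none of the 4 motifs. Of the 3 Srebf1 windows, 2 held 1 CCAAT box each and 2 held 2 GC boxes each. None of these windows held either the SRE core or the E-box in these exact letters, which says only that the letters are not there.

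The deposited values are log2 intensities of probe sets, and the arrays stand apart in 2 sets by the spread of these values. The SD of all probe sets on an array lay at 1.37 to 1.45 log2 for 10 narrow arrays and at 1.79 to 1.85 for 8 wide ones, either side of the limit of 1.6. All 6 groups held both kinds, unevenly: at day 21 Pax7+/+ cells had 2 narrow arrays and 1 wide array, and Pax7-/- cells 1 narrow array and 2 wide ones. Of the 8 genes, 7 read higher on wide than on narrow arrays, by 0.90 (Srebf1) to 2.04 log2 (Fads1), and Scd3 read lower, at -0.91 log2. Values are therefore given by array set, and the test (limma, with Benjamini-Hochberg adjustment over all 22180 genes) has the array set as a block. A gene passed at an adjusted p under 0.05, and differences are log2 ± SE from this fit with 3 arrays per group. Without the block limma called none of the 8 genes in any comparison, and at most 29 of all genes in one, so every call below rests on it. At an unadjusted p under 0.05 the fit without the block gave 0 to 5 of the 8 genes, depending on the comparison. Pax7 itself read 5.61 to 6.35 log2 on narrow Pax7+/+ arrays and 5.86 to 6.37 on narrow Pax7-/- arrays, and 4.68 to 5.52 and 4.76 to 5.53 on wide ones. Where its probes lie relative to the altered sequence is not given, so these readings check no label. Of 10 pluripotency markers, all lay above the array median on every day 0 array, and 8 in Pax7+/+ and 9 in Pax7-/- cells were lower at day 21 than at day 0.

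At day 21 Fasn, Acaca and Elovl6, which build saturated fatty acids, and Fads2 were higher in Pax7-/- than in Pax7+/+ outgrowths. Of the 8 genes, 4 passed as higher and 0 as lower, while 3.82% of all genes passed as higher and 1.07% as lower. Those shares are over genes of any signal, with no filter. By mean signal Fasn stood at percentile 98 of all genes, Fads2 at 97.4, Elovl6 at 98.8 and Acaca at 69.7. Fasn differed by 1.37 ± 0.17 log2, a ratio of 2.58. The count was 2 without Pax7+/+ day 21 replicate 1 or 3, or without Pax7-/- day 21 replicate 1 or 2. Without Pax7-/- day 21 replicate 3 Elovl6 (adjusted p = 0.0669) and Acaca (0.0773) were lost as well, while Scd1 passed (0.0257). The median difference over the 8 genes was 0.71 log2, against -0.01 over all genes. At day 0 no member passed in limma's test, with 2 of 8 at an unadjusted p under 0.05, beside 0.388% of all genes higher and 0.893% lower. The median over the 8 genes at day 0 was -0.07 log2.

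**Figure D1:**
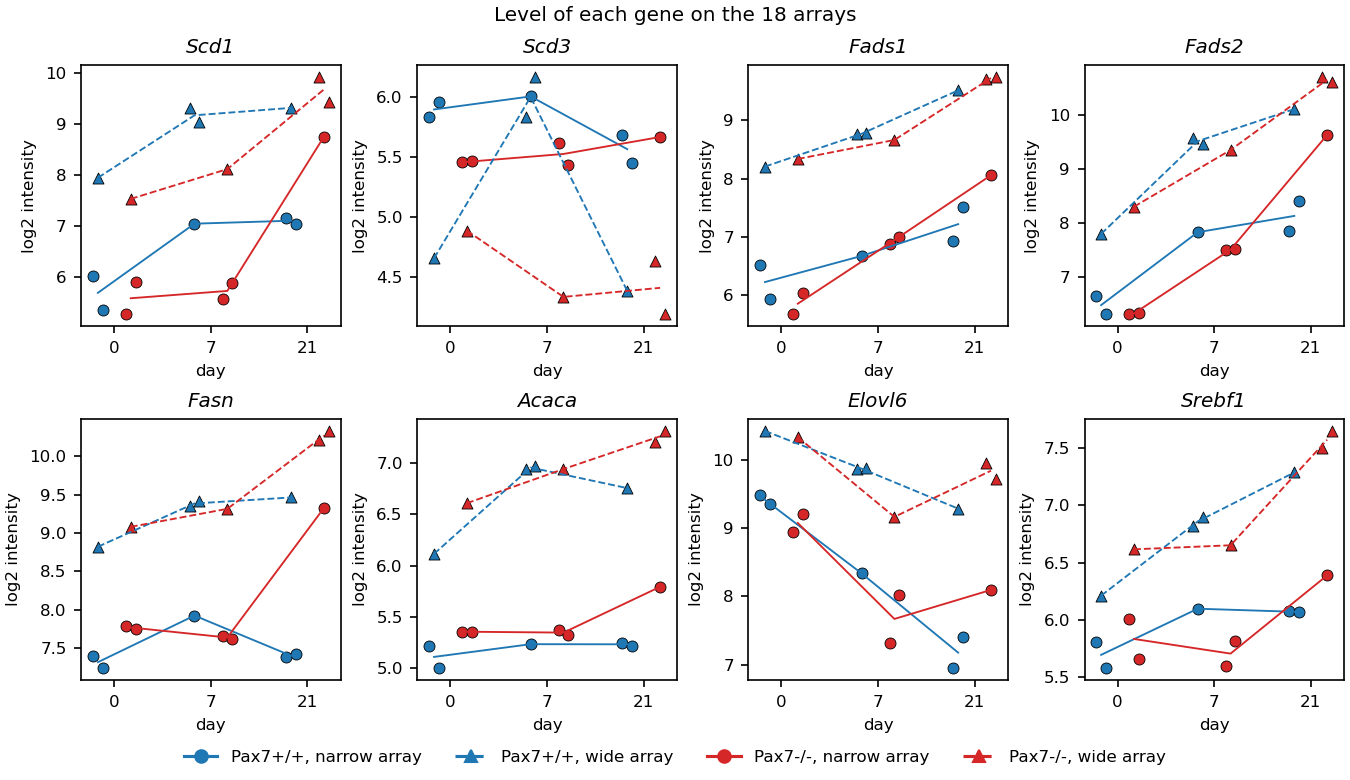
Level of each of the 8 genes on all 18 arrays, in log2 intensity against day. Blue marks Pax7+/+ and red Pax7-/-, circles and solid lines narrow arrays, triangles and dashed lines wide arrays, and lines join the means of a genotype within a set. Fads2 and Scd1 lie higher at day 21 than at day 0 in both genotypes and both sets, Elovl6 lies lower, and the Fasn lines of the genotypes part at day 21.

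Over the days the family did not move as one. From day 0 to day 21 Pax7+/+ cells raised 4 of the 8 genes and lowered 1, with 4.97% of all genes higher and 9.64% lower. Pax7-/- cells raised 6 and lowered 1, with 4.92% and 4.04% of all genes. Fads2 rose the most in both, by 1.88 ± 0.19 and 2.79 ± 0.20 log2, and Elovl6 was the member that fell. The steps were counted within each genotype, with no test of the difference between genotypes. In Pax7+/+ cells 3 genes rose and 1 fell from day 0 to day 7 (2.54% and 3.14% of all genes), and 0 rose and 2 fell from day 7 to day 21 (1.37% and 4.48%). In Pax7-/- cells 2 rose and 1 fell in the first week (2.05% and 1.82%), and 5 rose and 0 fell from day 7 to day 21 (0.455% and 0.379%). The first-week count in Pax7+/+ cells went from 4 to 2 without Pax7+/+ day 0 replicate 2, day 7 replicate 2 or day 7 replicate 3, and the later count in Pax7-/- cells from 5 to 3 without Pax7-/- day 7 replicate 1 or 2 or day 21 replicate 3. These steps share the day 7 arrays with the difference that was known when the family was proposed, and each genotype's steps share that day with each other. The first-week rises in Pax7+/+ cells include Scd1 and Scd3, the later falls there Scd3, and the later rises in Pax7-/- cells Scd1. For these 2 genes the counts and p-values of steps that use day 7 are no independent support.

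**Figure D2:**
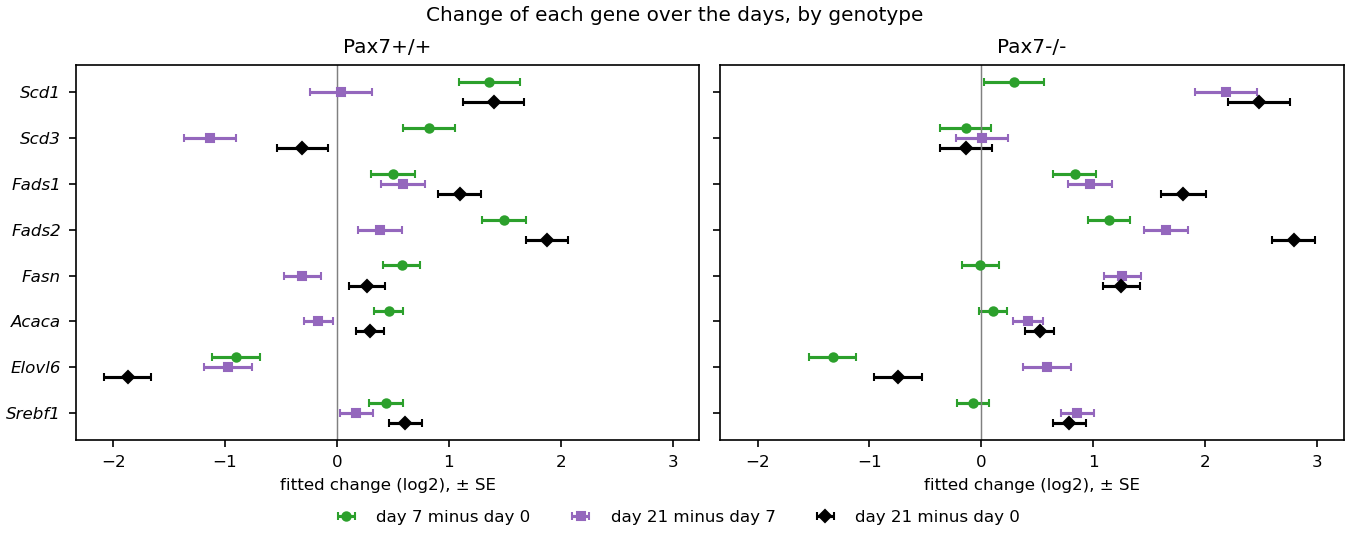
Fitted change of each gene between days in log2, with bars of 1 SE, in Pax7+/+ (left) and Pax7-/- cells (right). Circles are day 7 minus day 0, squares day 21 minus day 7 and diamonds day 21 minus day 0. Scd1 rose by 1.36 log2 in the first week in Pax7+/+ cells and by 2.19 log2 after day 7 in Pax7-/- cells, and Elovl6 lies left of 0 in the first week in both. Both Scd1 steps use the day 7 arrays by which the family was chosen, so they are no independent support.

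Fasn, the enzyme that assembles palmitate, had the day 21 difference between genotypes with the largest value among the 8 genes. At day 0 it read 7.40 and 7.24 on the narrow arrays and 8.82 on the wide array in Pax7+/+ cells, and 7.79 and 7.75 on the narrow arrays and 9.08 on the wide array in Pax7-/- cells. At day 7 the values were 7.93 on the narrow array and 9.35 and 9.42 on the wide arrays in Pax7+/+ cells, and 7.66 and 7.62 on the narrow arrays and 9.31 on the wide array in Pax7-/- cells. At day 0 the Pax7-/- arrays read above the Pax7+/+ arrays of their own set, and at day 7 below them. Outgrowths of day 21 gave 7.38 and 7.43 on the narrow arrays and 9.46 on the wide array in Pax7+/+ cells, and 9.32 on the narrow array and 10.21 and 10.33 on the wide arrays in Pax7-/- cells. In both sets every Pax7-/- array lay above every Pax7+/+ array at day 21, although the narrow Pax7-/- array read below the wide Pax7+/+ one. The day 21 difference of 1.37 ± 0.17 log2 passed (adjusted p = 0.000316), at 1.92 log2 within the narrow and 0.80 within the wide set, each of which has 1 array on one side. It passed in 18 of 18 fits that left out 1 array, with differences from 1.11 to 1.63 log2. In Pax7-/- cells Fasn rose by 1.26 ± 0.17 log2 from day 7 to day 21 (adjusted p = 0.00149), and in Pax7+/+ cells the same step was -0.31 ± 0.17 log2 (adjusted p = 0.336). Over the first week Fasn changed by 0.58 ± 0.17 log2 in Pax7+/+ cells, just short of the threshold (adjusted p = 0.0514), and by -0.01 ± 0.16 in Pax7-/- cells. The former passed without Pax7+/+ day 21 replicate 1 (0.0463) or 2 (0.00873) or Pax7-/- day 21 replicate 1 (0.026), and the later step in Pax7+/+ cells without Pax7+/+ day 21 replicate 2 (0.0467). The first-week value in Pax7+/+ cells also passed after quantile normalization (0.0102) and with trended robust eBayes (0.0484). Filters on low signal at the 25th percentile (0.0434) and the median (0.0321) let it pass as well.

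The genotype difference of Fasn was 0.98 ± 0.23 log2 larger at day 21 than at day 0 (adjusted p = 0.0419). Of the 8 genes it was the 1 that passed in this comparison, in which 1.50% of all genes passed as higher and 0.356% as lower. The call held in 3 of 18 fits without 1 array, where its adjusted p ran from 0.00294 to 0.118, the highest without Pax7+/+ day 0 replicate 1. It passed without Pax7+/+ day 21 replicate 2, Pax7-/- day 7 replicate 2 or Pax7-/- day 21 replicate 2. For Elovl6 the change of the difference was 1.13 ± 0.30 log2 (adjusted p = 0.071), for Scd1 1.08 ± 0.39 (adjusted p = 0.202) and for Fads2 0.91 ± 0.27 (adjusted p = 0.111), none of them past the threshold. The other 4 lay between 0.17 (Scd3) and 0.71 log2 (Fads1). Elovl6 passed without Pax7+/+ day 0 replicate 3 (0.0288) or Pax7+/+ day 21 replicate 2 (0.015). After quantile normalization Elovl6 (0.0302) and Fads2 (0.0436) passed as well, and with a filter on low signal at the median Elovl6 did (0.0395). On narrow arrays alone the change was 1.75 log2 for Scd1 and 1.66 for Fads2. Fasn itself did not pass on the common scale (0.123). The call thus does not set Fasn apart from these genes.

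Acaca, which makes the malonyl-CoA that Fasn uses, was higher in Pax7-/- cells at day 21 as well. At day 0 it read 5.22 and 5.0 on the narrow arrays and 6.11 on the wide array in Pax7+/+ cells, and 5.36 and 5.36 on the narrow arrays and 6.61 on the wide array in Pax7-/- cells. At day 7 it read 5.23 on the narrow array and 6.94 and 6.96 on the wide arrays in Pax7+/+ cells, and 5.37 and 5.32 on the narrow arrays and 6.94 on the wide array in Pax7-/- cells. On the narrow arrays of these days the Pax7-/- values (5.32 to 5.37 log2) lay above the Pax7+/+ values (5.0 to 5.23). At day 21 Pax7+/+ arrays gave 5.25 and 5.22 on the narrow arrays and 6.75 on the wide array, and Pax7-/- arrays 5.79 on the narrow array and 7.21 and 7.31 on the wide arrays. The Pax7-/- arrays were the higher ones in both sets at day 21. The difference was 0.55 ± 0.13 log2 (adjusted p = 0.0212), 0.56 on narrow and 0.50 on wide arrays. Acaca passed in 13 of 18 fits without 1 array. Without Pax7-/- day 21 replicates 1, 2 and 3 its adjusted p was 0.0551, 0.0506 and 0.0773, and without Pax7+/+ day 21 replicates 1 and 3 it was 0.0572 and 0.0617. From day 0 to day 21 Acaca rose by 0.52 ± 0.13 log2 in Pax7-/- cells (adjusted p = 0.0212), a call lost without Pax7-/- day 0 replicate 2 (adjusted p = 0.173) or day 21 replicate 2 (0.0553) or 3 (0.0833). In Pax7+/+ cells the same interval gave 0.30 ± 0.13 log2 (adjusted p = 0.145, and 0.0441 without Pax7+/+ day 0 replicate 1). The first week gave 0.46 ± 0.13 log2 in Pax7+/+ cells (adjusted p = 0.0504) and 0.11 ± 0.13 in Pax7-/- cells. The Pax7+/+ value passed without Pax7+/+ day 0 replicate 1 (0.0182), day 7 replicate 1 (0.0243) or day 21 replicate 2 (0.046). It also passed with filters on low signal at the 25th percentile (0.049) and the median (0.037), and with the mean of a gene's probe sets (0.0496).

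Elovl6, the elongase that takes palmitate to stearate, fell from day 0 to day 21 in both genotypes, while 6 of the other 7 genes had values above 0 and Scd3 values below 0. At day 0 it read 9.48 and 9.35 on the narrow arrays and 10.42 on the wide array in Pax7+/+ cells, and 8.94 and 9.21 on the narrow arrays and 10.33 on the wide array in Pax7-/- cells. At day 7 it read 8.34 on the narrow array and 9.87 and 9.88 on the wide arrays in Pax7+/+ cells, and 7.32 and 8.02 on the narrow arrays and 9.17 on the wide array in Pax7-/- cells. In each set the day 7 values lay below those of day 0. At day 21 Pax7+/+ arrays gave 6.95 and 7.40 on the narrow arrays and 9.29 on the wide array, and Pax7-/- arrays 8.10 on the narrow array and 9.96 and 9.72 on the wide arrays. Within each set all Pax7-/- arrays lay above the Pax7+/+ arrays at this day. Elovl6 fell by 0.90 ± 0.21 log2 in the first week in Pax7+/+ cells (adjusted p = 0.0202) and by 1.33 ± 0.21 in Pax7-/- cells (adjusted p = 0.00153). From day 7 to day 21 it fell by a further 0.97 ± 0.21 log2 in Pax7+/+ cells (adjusted p = 0.0128), and in Pax7-/- cells the step was 0.58 ± 0.21 (adjusted p = 0.262). Over the whole course it fell by 1.87 ± 0.21 log2 in Pax7+/+ cells (adjusted p = 1.27e-05). The Pax7-/- value of -0.74 ± 0.21 (adjusted p = 0.0412) passed in 6 of 18 fits without 1 array, with adjusted p up to 0.126 without Pax7-/- day 21 replicate 1. Those 6 left out Pax7+/+ day 0 replicate 1 or 3, Pax7+/+ day 21 replicate 1 or 2, or Pax7-/- day 7 replicate 1 or 3.

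At day 21 Elovl6 was 0.87 ± 0.21 log2 higher in Pax7-/- cells (adjusted p = 0.027), 0.92 on narrow and 0.56 on wide arrays. Leaving out Pax7+/+ day 21 replicate 1 or 3 gave an adjusted p of 0.0987 or 0.0601, and leaving out Pax7-/- day 21 replicate 2 or 3 gave 0.102 or 0.0669. The first-week fall in Pax7+/+ cells was likewise lost without day 0 replicate 1 (0.0736) or 2 (0.0572) or day 7 replicate 1 (0.0598), 2 (0.0651) or 3 (0.0655).

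Fads2, the delta-6 desaturase that opens polyunsaturated fatty acid synthesis, had the largest rise. At day 0 it read 6.65 and 6.31 on the narrow arrays and 7.80 on the wide array in Pax7+/+ cells, and 6.31 and 6.33 on the narrow arrays and 8.30 on the wide array in Pax7-/- cells. By day 7 the values were 7.83 on the narrow array and 9.57 and 9.46 on the wide arrays in Pax7+/+ cells, and 7.50 and 7.51 on the narrow arrays and 9.35 on the wide array in Pax7-/- cells. The day 7 arrays lay above those of day 0 within each set and genotype. At day 21 Pax7+/+ arrays gave 7.86 and 8.41 on the narrow arrays and 10.11 on the wide array, and Pax7-/- arrays 9.63 on the narrow array and 10.71 and 10.61 on the wide arrays. In the first week Fads2 rose by 1.49 ± 0.20 log2 in Pax7+/+ cells (adjusted p = 0.000214) and by 1.14 ± 0.19 in Pax7-/- cells (adjusted p = 0.00237). After day 7 it rose by 1.65 ± 0.20 log2 in Pax7-/- cells (adjusted p = 0.000788), and the step in Pax7+/+ cells was 0.38 ± 0.20 (adjusted p = 0.31). After quantile normalization the Pax7+/+ step was 0.59 log2 and passed limma's test (adjusted p = 0.0359). At day 21 it was 0.98 ± 0.20 log2 higher in Pax7-/- than in Pax7+/+ cells (adjusted p = 0.00771), 1.50 on narrow and 0.55 on wide arrays. Without Pax7-/- day 21 replicate 1, its narrow array, the difference was 0.69 log2 (adjusted p = 0.0545).

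Fads1, the delta-5 desaturase near it on the chromosome, rose as well and by less. Pax7+/+ arrays read 6.51 and 5.94 on the narrow arrays and 8.20 on the wide array at day 0, and 6.67 on the narrow array and 8.76 and 8.78 on the wide arrays at day 7. Pax7-/- arrays read 5.67 and 6.04 on the narrow arrays and 8.33 on the wide array at day 0, and 6.89 and 7.00 on the narrow arrays and 8.66 on the wide array at day 7. Within each set the day 7 values of Pax7-/- cells lay above their day 0 values, and in Pax7+/+ cells they lay above them too. At day 21 the values were 6.92 and 7.51 on the narrow arrays and 9.51 on the wide array in Pax7+/+ cells, and 8.06 on the narrow array and 9.70 and 9.74 on the wide arrays in Pax7-/- cells. Over 21 days Fads1 rose by 1.10 ± 0.19 log2 in Pax7+/+ (adjusted p = 0.000891) and 1.80 ± 0.20 in Pax7-/- cells (adjusted p = 4.4e-05). Its genotype difference at day 21, 0.50 ± 0.20 log2 (adjusted p = 0.185), did not pass, and its 95% interval ran from 0.09 to 0.92. In Pax7-/- cells both steps passed, 0.83 ± 0.19 log2 in the first week (adjusted p = 0.0227) and 0.97 ± 0.20 after it (adjusted p = 0.0295). The former passed in 14 of 18 and the latter in 12 of 18 fits without 1 array, with adjusted p up to 0.0991 without Pax7-/- day 7 replicate 3 and up to 0.192 without Pax7-/- day 7 replicate 2. The first-week call was lost without Pax7-/- replicate 1 or 3 of day 0 or of day 7, and the later one without any 1 of the 6 Pax7-/- arrays of days 7 and 21. In Pax7+/+ cells the steps were 0.50 ± 0.20 (adjusted p = 0.174) and 0.59 ± 0.20 (adjusted p = 0.0983, and 0.0331 without Pax7+/+ day 21 replicate 1).

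Scd1, the main stearoyl-CoA desaturase of liver and adipose tissue, rose in both genotypes by day 21. At day 0 it read 6.03 and 5.35 on the narrow arrays and 7.95 on the wide array in Pax7+/+ cells, and 5.27 and 5.90 on the narrow arrays and 7.53 on the wide array in Pax7-/- cells. At day 7 Pax7+/+ arrays gave 7.05 on the narrow array and 9.31 and 9.04 on the wide arrays, and Pax7-/- arrays 5.57 and 5.88 on the narrow arrays and 8.12 on the wide array. The day 7 Pax7-/- arrays lay below the Pax7+/+ arrays of their own set, and the narrow ones within the day 0 range. At day 21 the values were 7.17 and 7.04 on the narrow arrays and 9.32 on the wide array in Pax7+/+ cells, and 8.75 on the narrow array and 9.92 and 9.44 on the wide arrays in Pax7-/- cells. Scd1 rose by 1.36 ± 0.28 log2 in the first week in Pax7+/+ cells (adjusted p = 0.00751) and then changed by 0.04 ± 0.28 (95% interval -0.55 to 0.62). In Pax7-/- cells the first week gave 0.29 ± 0.27 log2 (adjusted p = 0.631), and from day 7 to day 21 Scd1 rose by 2.19 ± 0.28 (adjusted p = 0.00123), a ratio of 4.55. The genotype difference was -0.21 ± 0.27 log2 at day 0, -1.28 ± 0.28 at day 7 and 0.87 ± 0.28 at day 21. That of day 7 is a value by which the family was chosen, so the change of the difference over the first week (-1.07 ± 0.39 log2) was not tested. The steps of Scd1 into and out of day 7 use the same arrays, so their p-values are no independent support. That of day 21 did not pass (adjusted p = 0.0914), with 1.65 log2 on narrow and 0.36 on wide arrays. Without Pax7-/- day 21 replicate 1 it was 0.38 log2 (adjusted p = 0.451), and without replicate 3 of that group 1.15 (adjusted p = 0.0257), the 1 of 18 such fits in which it passed. With a filter on low signal at the median it passed too (adjusted p = 0.0493).

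Scd3, a desaturase best known from skin and the Harderian gland, was lower at day 21 than at day 7 in Pax7+/+ cells. At day 0 it read 5.83 and 5.96 on the narrow arrays and 4.65 on the wide array in Pax7+/+ cells, and 5.45 and 5.46 on the narrow arrays and 4.88 on the wide array in Pax7-/- cells. At day 7 it read 6.0 on the narrow array and 5.83 and 6.16 on the wide arrays in Pax7+/+ cells, and 5.62 and 5.43 on the narrow arrays and 4.33 on the wide array in Pax7-/- cells. The 3 Pax7+/+ arrays of day 7 lay above the 3 Pax7-/- arrays, with wide Pax7+/+ arrays reading as high as the narrow one, unlike in other groups. At day 21 the values were 5.68 and 5.45 on the narrow arrays and 4.38 on the wide array in Pax7+/+ cells, and 5.67 on the narrow array and 4.63 and 4.19 on the wide arrays in Pax7-/- cells. Scd3 was dim, with a mean at percentile 52.7 of all genes. Its wide array of Pax7+/+ cells at day 21 (4.38 log2) read below that array's median over all probe sets (4.68). From day 7 to day 21 Scd3 fell by 1.13 ± 0.23 log2 in Pax7+/+ cells (adjusted p = 0.00796), -0.44 on narrow and -1.62 on wide arrays. The call was lost without Pax7+/+ day 21 replicate 2 (adjusted p = 0.0527). The larger changes of Scd3 thus rest on its 2 wide arrays of day 7 in Pax7+/+ cells. The first-week rise of 0.82 ± 0.23 log2 in Pax7+/+ cells (adjusted p = 0.049), 0.11 on narrow and 1.34 on wide arrays, passed in 4 of 18 fits without 1 array, with adjusted p up to 0.292 without Pax7+/+ day 0 replicate 3. Those 4 left out Pax7+/+ day 7 replicate 1, Pax7+/+ day 21 replicate 2, Pax7-/- day 0 replicate 2 or Pax7-/- day 21 replicate 3. Both steps use the day 7 arrays by which the family was chosen, so their p-values are no independent support. Nothing passed for Scd3 in Pax7-/- cells, where the steps were -0.14 ± 0.23 and 0.00 ± 0.23 log2. The genotype difference was -0.21 ± 0.23 log2 at day 0, -1.18 ± 0.23 at day 7 (the other value by which the family was chosen) and -0.04 ± 0.23 at day 21. Within the sets the day 21 difference was 0.10 log2 on narrow and 0.03 on wide arrays, both above the fitted value. Scd1, Scd2, Scd3 and Scd4 are closely related neighbouring copies, and how far their probes tell them apart is not given.

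The probe set that lists Scd2, the desaturase of brain and early development, together with Mir5114 rose over the days. Pax7+/+ arrays read 8.62 and 8.54 on the narrow arrays and 9.46 on the wide array at day 0, and 10.18 and 10.49 on the narrow arrays and 10.98 on the wide array at day 21. Pax7-/- arrays read 7.88 and 8.15 on the narrow arrays and 9.48 on the wide array at day 0, and 10.93 on the narrow array and 11.16 and 11.02 on the wide arrays at day 21. All day 21 arrays lay above all day 0 arrays within each genotype. At day 7 Pax7+/+ arrays gave 9.66 on the narrow array and 10.46 and 10.27 on the wide arrays, and Pax7-/- arrays 8.70 and 8.96 on the narrow arrays and 10.07 on the wide array. The Pax7-/- values of day 7 lay below those of Pax7+/+ cells within each set, by -0.83 log2 on narrow and -0.29 on wide arrays. At day 21 the differences were 0.59 and 0.11 log2.

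Srebf1, the gene for the transcription factor SREBP-1, moved modestly. Pax7+/+ arrays gave 5.81 and 5.58 on the narrow arrays and 6.21 on the wide array at day 0, and 6.10 on the narrow array and 6.82 and 6.90 on the wide arrays at day 7. Pax7-/- arrays gave 6.0 and 5.66 on the narrow arrays and 6.62 on the wide array at day 0, and 5.59 and 5.81 on the narrow arrays and 6.65 on the wide array at day 7. In the first week no clear order of days is seen in Pax7-/- cells, whose narrow arrays of days 0 and 7 overlap. At day 21 the values were 6.07 and 6.06 on the narrow arrays and 7.29 on the wide array in Pax7+/+ cells, and 6.39 on the narrow array and 7.50 and 7.65 on the wide arrays in Pax7-/- cells. From day 7 to day 21 Srebf1 rose by 0.86 ± 0.15 log2 in Pax7-/- cells (adjusted p = 0.0114), while Pax7+/+ cells gave 0.17 ± 0.15 (adjusted p = 0.61). The Pax7-/- call was lost without Pax7-/- day 7 replicate 1 (0.0578) or 2 (0.0617) or day 21 replicate 3 (0.0642). Over 21 days it rose by 0.61 ± 0.15 log2 in Pax7+/+ (adjusted p = 0.00888) and 0.78 ± 0.15 in Pax7-/- cells (adjusted p = 0.00391). The former call was lost without Pax7+/+ day 0 replicate 3 (0.0709) or day 21 replicate 2 (0.0654). Between genotypes Srebf1 did not pass at day 21 (0.40 ± 0.15 log2, adjusted p = 0.155). Within the sets the difference was 0.32 log2 on narrow and 0.29 on wide arrays, both below the fitted value. The array measures the transcript and not the cleaved protein.

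**Figure D3:**
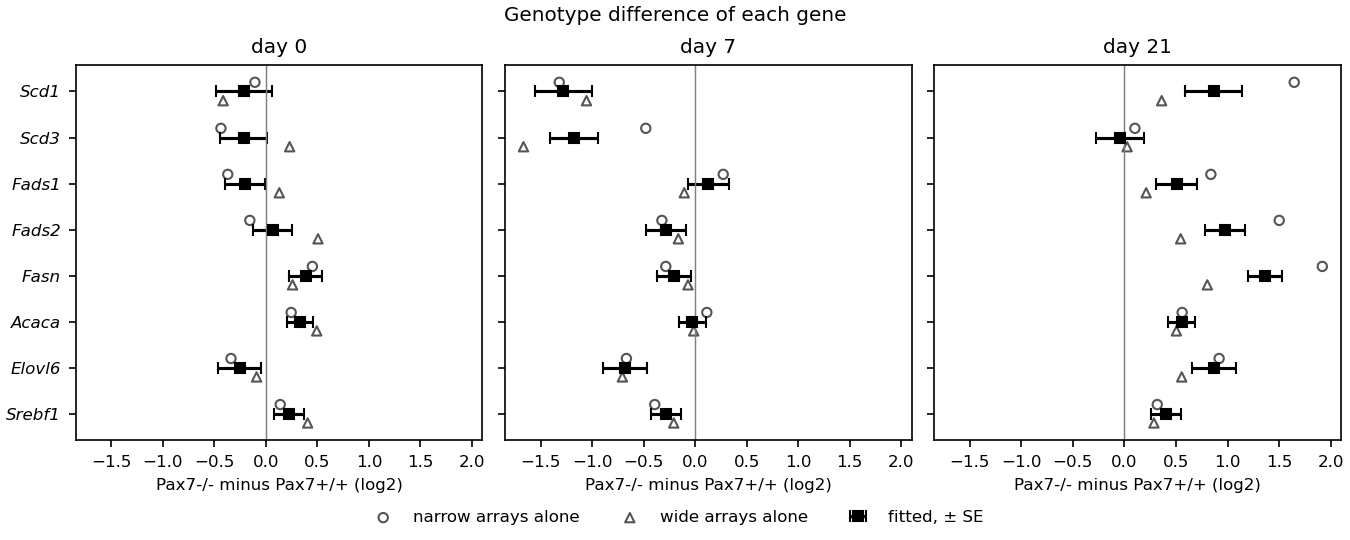
Pax7-/- minus Pax7+/+ in log2 for each gene at days 0, 7 and 21. Squares with bars are the fitted difference ± SE, and open circles and triangles are the differences within the narrow and the wide arrays alone. At day 21, 7 of the 8 squares lie right of 0, with Fasn farthest out at 1.37 log2, and at day 7 those of Scd1 and Scd3 lie farthest left.

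At day 7, where no test was made, 7 of the 8 genes had a value below 0, of which Acaca lay within its SE of 0 and was above 0 on the common scale and after quantile normalization. Elovl6 differed by -0.68 ± 0.21 log2, Fads2 by -0.29 ± 0.20, Srebf1 by -0.28 ± 0.15, Fasn by -0.20 ± 0.17 and Acaca by -0.03 ± 0.13, and Fads1 by 0.13 ± 0.20. The median over the 8 genes was -0.29 log2, against -0.005 over all genes. The share of all genes below 0 was not counted. The count and the median include Scd1 and Scd3, whose low values at this day led to the choice of the family. Neither is therefore support for a lower level of the family at day 7. Elovl6 was thus next to Scd1 and Scd3 in size, at near values on narrow (-0.67) and wide arrays (-0.71). At day 0 the largest differences were 0.39 ± 0.16 log2 for Fasn (adjusted p = 0.358) and 0.33 ± 0.13 for Acaca (adjusted p = 0.308), with 95% intervals of 0.04 to 0.73 and 0.06 to 0.60. Between day 7 and day 21 the genotype difference moved up by 2.15 ± 0.40 log2 for Scd1, 1.57 ± 0.24 for Fasn, 1.55 ± 0.31 for Elovl6 and 1.26 ± 0.28 for Fads2, given as values since they share the day 7 arrays with the choice of the family.

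The neighbouring lipid pathways were counted over lists of known genes with the same test, beside the 3.82% of all genes that passed as higher and 1.07% as lower at day 21. At that day 5 of the 17 measured genes of cholesterol synthesis and uptake were higher in Pax7-/- cells and 0 lower, with a list median of 0.44 log2. They include Hmgcs1, which makes HMG-CoA (0.90 ± 0.19 log2, adjusted p = 0.0115), Msmo1, a methylsterol oxidase (1.03 ± 0.23, adjusted p = 0.0147), and Fdps, which makes farnesyl diphosphate (0.71 ± 0.18, adjusted p = 0.0273). Of 8 genes of substrate supply, Acly, which releases acetyl-CoA from citrate, was higher (0.99 ± 0.13 log2, adjusted p = 0.00047). Me1, the malic enzyme that makes NADPH, was lower (-0.84 ± 0.14 log2, adjusted p = 0.00257). Among 16 other elongases and desaturases 2 were higher and 0 lower: Elovl2, which lengthens polyunsaturated chains (0.89 ± 0.19, adjusted p = 0.0119), and Tecr, the enoyl reductase of the elongation cycle (0.70 ± 0.12, adjusted p = 0.00221). Of 11 genes of fatty acid uptake, binding and droplets 1 was higher, Acsl4, which activates arachidonate (0.95 ± 0.11, adjusted p = 0.000154). None of 12 regulators of SREBP processing, 12 genes of glycerolipid synthesis and 13 of fatty acid oxidation passed, with medians of -0.02, -0.08 and -0.04 log2. At an unadjusted p under 0.05 in limma, 3, 2 and 1 of them differed. Counts of 0 and 1 in lists of this size are near what the shares of all genes give.

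**Figure D4:**
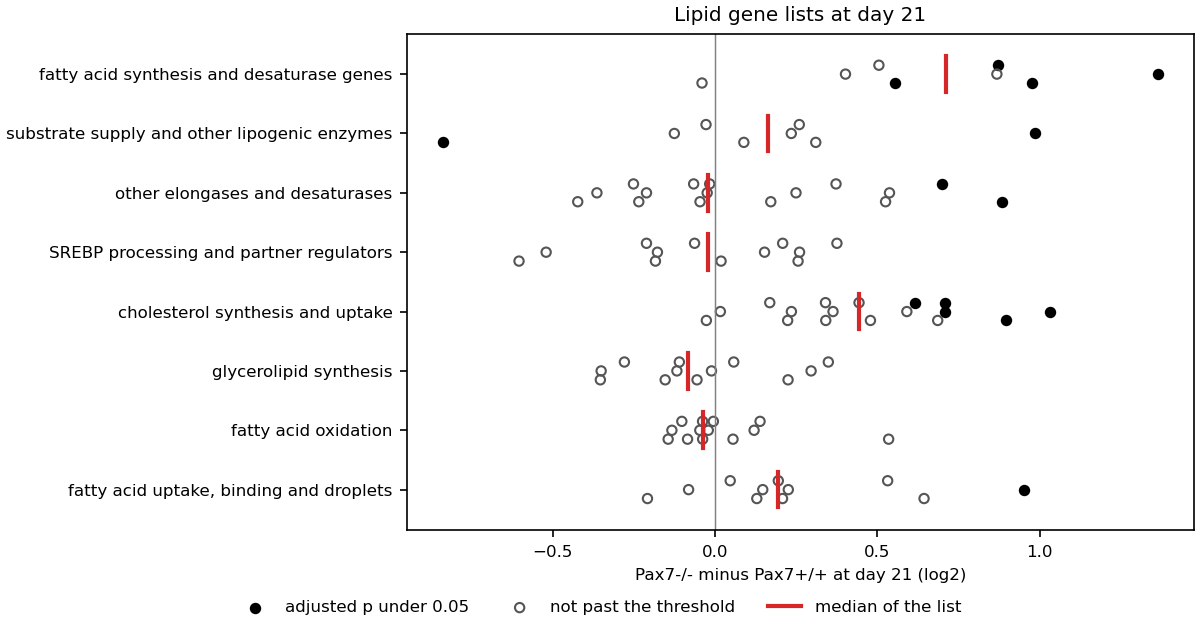
Pax7-/- minus Pax7+/+ at day 21 in log2 for the members and for 7 lists of lipid genes. Each point is a gene, filled where its adjusted p was under 0.05, and the red bar is the list's median, which is 0.71 log2 for the members and 0.44 for cholesterol synthesis and uptake.

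Some genes of the sterol pathway rose from day 0 to day 21 in each genotype. In Pax7-/- cells 6 of the 17 cholesterol genes rose from day 7 to day 21 and 0 fell, beside 0.455% and 0.379% of all genes. Their median was 0.79 log2, led by Hmgcs1 (1.89 ± 0.19, adjusted p = 0.00021). In Pax7+/+ cells 0 of the 17 passed limma's test at this step (3 at an unadjusted p under 0.05), and the median was -0.01 log2. Of all genes 1.37% rose and 4.48% fell there. At day 7 the median genotype difference of the 17 genes, described with no test, was -0.40 log2, against -0.005 over all genes. Steps in this paragraph that use day 7 share arrays with the difference by which the family was chosen. They are therefore no independent support for the results of the family. Over the whole course 11 of 17 rose in Pax7-/- cells (4.92% of all genes) and 4 of 17 in Pax7+/+ cells (4.97%). In either 0 fell, beside 4.04% of all genes in Pax7-/- and 9.64% in Pax7+/+ cells. The genotypes are not shown to differ in this by the counts. For the change of the genotype difference from day 0 to day 21 limma's test called 0 of the 17 genes. At an unadjusted p under 0.05 it gave 6. Of all genes 1.50% passed as higher and 0.356% as lower in that comparison. Srebf2, the gene for the sterol-regulating SREBP-2, rose by 0.66 ± 0.13 log2 in the first week in Pax7+/+ cells (adjusted p = 0.00675) and by 1.08 ± 0.13 after day 7 in Pax7-/- cells (adjusted p = 0.00101). Insig1, which holds SREBP in the endoplasmic reticulum, rose over 21 days by 2.80 ± 0.19 log2 in Pax7+/+ (adjusted p = 7.3e-08) and 2.04 ± 0.19 in Pax7-/- cells (adjusted p = 9.86e-06). Acly rose from day 7 to day 21 in Pax7-/- cells (0.98 ± 0.13 log2, adjusted p = 0.00149). Cpt1a, the gate of fatty acid oxidation in mitochondria, fell by 1.41 ± 0.18 log2 over 21 days in Pax7+/+ (adjusted p = 4.64e-05) and by 0.86 ± 0.18 in Pax7-/- cells (adjusted p = 0.00918). Fabp7, the fatty acid binding protein of neural progenitors, rose in the first week by 3.36 ± 0.62 log2 in Pax7+/+ (adjusted p = 0.00401) and 3.16 ± 0.61 in Pax7-/- cells (adjusted p = 0.00689).

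Outgrowths hold several cell types, and markers of some of them moved with the genotype at day 21. In such bulk samples fewer cells of a type and less RNA per cell cannot be told apart. Of 10 neural markers 4 were higher in Pax7-/- cells and 0 lower, among them Sox1 (1.76 ± 0.26 log2, adjusted p = 0.000967) and Tubb3 (0.74 ± 0.16, adjusted p = 0.0118). Their summed level was 56.7 to 56.8 log2 on the narrow Pax7+/+ arrays against 60.5 on the narrow Pax7-/- array, and 64.3 against 68.5 to 69.7 on the wide ones. Of 9 fibroblast markers 0 were higher and 2 lower, Dcn (-1.25 ± 0.31 log2, adjusted p = 0.0267) and Pdgfra (-1.26 ± 0.30, adjusted p = 0.0216), with sums of 56.8 to 60.5 in narrow and 75.9 in wide Pax7+/+ arrays, and of 52.0 and 61.2 to 67.9 in Pax7-/- arrays. The pluripotency list split, with Sox2 (1.41 ± 0.21 log2), Utf1 (1.45 ± 0.28) and Nanog (1.37 ± 0.33) higher and Klf4 lower (-1.20 ± 0.16). Krt18 (-0.89 ± 0.22 log2) was the 1 of 10 epithelial markers that passed, as lower, and none of 11 markers of visceral endoderm and hepatocytes passed, with a median of -0.84 log2 and 3 at an unadjusted p under 0.05. Of 9 markers of adipocytes, a cell type rich in this pathway, 0 passed in either direction at day 21 in limma's test, and 1 had an unadjusted p under 0.05. Their summed level was 45.3 to 45.7 log2 on narrow Pax7+/+ arrays and 46.0 on the narrow Pax7-/- array, and 41.5 against 41.7 to 46.1 on the wide ones. Adiponectin (Adipoq), their defining marker, differed by 0.16 ± 0.10 log2 (adjusted p = 0.463). Neural and fibroblast sums already differed in the same directions at day 0. On narrow arrays of day 0 the neural sums were 57.3 to 57.7 log2 in Pax7+/+ and 59.0 to 59.4 in Pax7-/- cells. On the wide arrays they were 60.5 and 63.4. Fibroblast sums at day 0 were 53.7 to 54.4 and 50.6 to 51.1 log2 on narrow, and 65.3 and 56.5 on wide arrays. At day 7 the fibroblast sums were instead higher in Pax7-/- cells in both sets. The part of the neural and fibroblast shifts in the lipid gene results was not tested.

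**Figure D5:**
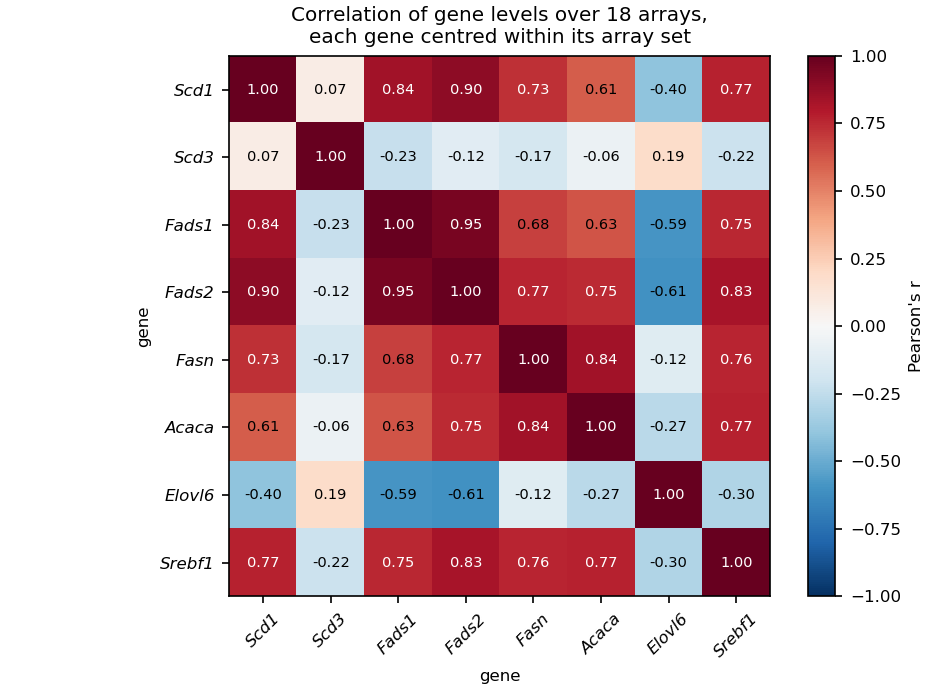
Pearson's r between each pair of the 8 genes over 18 arrays, with each gene centred within its array set. Red is positive and blue negative. Scd1, Fads1, Fads2, Fasn, Acaca and Srebf1 form a block of positive values from 0.61 to 0.95. Elovl6 lies between -0.61 and -0.12 against those 6 genes, and Scd3 between -0.23 and 0.19 against all others.

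Over the 18 arrays, with each gene centred within its array set, the family fell into 3 patterns. Scd1, Fads1, Fads2, Fasn, Acaca and Srebf1 all had positive correlations with each other, from 0.609 (Scd1 and Acaca) to 0.953 (Fads1 and Fads2). Elovl6 had negative ones with those 6 genes, from -0.120 with Fasn to -0.606 with Fads2. Scd3 had values between -0.229 and 0.187, a range that holds the value of Elovl6 with Fasn. The arrays share days and genotypes, so these values describe the course over the groups and carry no p. By the same measure the most similar genes on the whole array to Scd1 were Srebf2 (0.947), Ccni (0.9), Fads2 (0.897). For Fasn they were Acly (0.923), Ttll4 (0.913), Proser1 (0.904), for Fads1 Fads2 (0.953), Dpysl2 (0.937), Rcn2 (0.921) and for Fads2 Fads1 (0.953), Robo1 (0.942), Adgrl2 (0.915). Acaca was closest to Rnf145 (0.924), Fam181b (0.885), Grip1 (0.882), and Srebf1 to Gstk1 (0.939), Apcdd1 (0.932), Slc25a53 (0.931). Elovl6 ran with Mcm4 (0.972), Jarid2 (0.954), Sox2 (0.947), of which Mcm4 is part of the helicase of DNA replication and Sox2 and Jarid2 are known from stem cells. Scd3 was closest to Bola1 (0.925), Zfp386 (0.896), Prl5a1 (0.887).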

How the data were processed

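RNA of 18 samples was measured on Affymetrix arrays, and the authors deposited 1 table of log2 intensities per probe set. The submitters' processing notes name RMA, which corrects background, quantile-normalizes and summarises probes, and Partek, with no version or order. Whether the narrow and wide arrays come from 1 joint summary is not given in the sources used here. Their deposited values do not share 1 distribution. The SD was 1.37 to 1.45 log2 on narrow and 1.79 to 1.85 on wide arrays, and the median 4.91 to 4.97 and 4.55 to 4.68. Background, dim signal and probe content cannot be checked from summarised values, and the number of arrays limits the precision: with 3 per group, no exact permutation test reaches a p under 0.1.

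Of 41345 probe sets, the platform annotation gave 23521 with 1 gene symbol, 1814 with several and 16010 with none. The probe set with the highest mean was kept per gene, which gave 22180 genes, 1082 of them with several probe sets. There was no filter on signal, and gene identifiers of 21994 matched RefSeq (GRCm38.p6), the source of positions and promoters.

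Groups came from the labels. limma 3.58.1 in R 4.3.3 (lmFit, contrasts, eBayes) was fitted to all genes with 6 group means and the array set as a block (11 residual degrees of freedom), and p-values were Benjamini-Hochberg adjusted over all genes. Of 12 comparisons, 9 were tested and 3 that rest on the day 7 genotype difference were described. Named genes are all members and, per list and comparison, up to 3 genes in order of adjusted p among those that passed, and the 3 most alike genes per member by Pearson's r. Marker genes named, Pax7, and the values singled out were chosen after they were seen. The members and lists, and the use of the array set, were chosen with earlier results of these data known. The replicate numbers were not treated as pairs. Same-numbered arrays of 1 day correlated between -0.215 and 0.231 after the group and set means were removed. Of 18 arrays, 7 matched best an array of their own number. With 3 arrays per group this check cannot tell whether the numbers pair the samples. No 2 arrays held identical values. Alternatives were no array set block, a replicate block, quantile normalization, median centring, a common scale, filters on low signal, the mean of a gene's probe sets, trended robust eBayes, each array set alone, other thresholds, and leaving out each array. The fit was tested on simulated data. Plots used matplotlib 3.10.9 under Python 3.11.15.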

Additional observations from a re-analysis of the deposited data

Results flagged for a closer look

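The genotype difference of Fasn, the palmitate-making synthase, differed between days 0 and 21 in limma's test. It was 0.39 ± 0.16 log2 at day 0 and 1.37 ± 0.17 at day 21, and limma's test of the change of the difference gave 0.98 log2 (SE 0.23, adjusted p = 0.0419). On narrow arrays alone the change was 1.47 log2 (adjusted p = 0.00553) and on wide arrays alone 0.55 (adjusted p = 0.225). Leaving out 1 array at a time gave changes of 0.72 to 1.24 log2, all above 0, with adjusted p from 0.00294 to 0.118.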

How the results depend on the processing

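Without the array set as a block, limma called 0 of the 8 genes at day 21 between genotypes, in all 6 steps between days and for the change of the genotype difference. For the genotype difference at day 21 (4 genes called) the common scale, which gives all arrays 1 SD, gave 2, the wide arrays alone 1 and an adjusted p under 0.01 2, with 2 to 4 when 1 array was left out. The common scale left Fads2 at an adjusted p of 0.057 and Elovl6 at 0.0523. From day 0 to day 7 in Pax7+/+ cells (4 called), narrow arrays alone gave 2, wide arrays alone 7, an adjusted p under 0.01 gave 2 and leaving out 1 array 2 to 6, and in Pax7-/- cells (3 called) leaving out 1 array gave 2 to 3. From day 7 to day 21 in Pax7+/+ cells (2 called), narrow arrays gave 1, wide arrays 4, an adjusted p under 0.01 gave 1 and leaving out 1 array 2 to 3. In Pax7-/- cells (5 called) narrow arrays gave 3, an adjusted p under 0.01 gave 3 and leaving out 1 array 3 to 5. From day 0 to day 21 leaving out 1 array gave 4 to 6 in Pax7+/+ cells (5 called) and 5 to 7 in Pax7-/- cells (7 called), where narrow arrays alone gave 4. For the change of the genotype difference from day 0 to day 21 (1 called), the common scale, wide arrays alone and an adjusted p under 0.01 gave 0, quantile normalization and narrow arrays alone gave 3, a filter at the median and an adjusted p under 0.10 gave 2, and leaving out 1 array 0 to 2. The replicate block, for numbers not known to pair the samples, gave 0 for that change (Fasn 0.95 log2, adjusted p = 0.0782). It also took Scd3 from day 0 to day 7 in Pax7+/+ cells to an adjusted p of 0.0767, Fads1 from day 7 to day 21 in Pax7-/- cells to 0.0741 and Elovl6 from day 0 to day 21 in Pax7-/- cells to 0.0686. No called value of a gene changed sign under any alternative run. Of all calls at day 21, 78.1% were higher, and 68% after quantile normalization. From day 7 to day 21 in Pax7+/+ cells 23.4% were higher, and 34.8% after it, and of the changed genotype differences 80.8%, and 69.9% on the common scale. The cause of these changes was not tested.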

Other observations

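Further genes of the lipid lists changed over the days. From day 0 to day 21 Hacd2, a dehydratase of the elongation cycle, fell by 1.04 ± 0.21 log2 in Pax7+/+ cells (limma, adjusted p = 0.00251), and Elovl1, which lengthens very long chains, rose by 0.64 ± 0.14 (adjusted p = 0.00444). In the first week in Pax7+/+ cells Fads3, a relative of Fads1 and Fads2, fell by 1.73 ± 0.29 log2 (adjusted p = 0.00175), and it rose by 1.6 ± 0.29 from day 7 to day 21 (adjusted p = 0.00384). Degs1, a desaturase of ceramide synthesis, fell by 0.66 ± 0.16 log2 over 21 days in Pax7-/- cells (adjusted p = 0.0205). Me1 rose by 1.39 ± 0.14 log2 over 21 days in Pax7+/+ cells (adjusted p = 3.96e-06), and its genotype difference changed by -0.98 ± 0.20 between day 0 and day 21 (adjusted p = 0.0181). For Tecr that change was 0.82 ± 0.16 log2 (adjusted p = 0.0148), and for Acsl4 1.23 ± 0.15 (adjusted p = 0.000905).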
